A study of Mus musculus with 8 samples.

Results

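Regulatory T cells (Treg) from the ischemic brain of mice were set against Treg from the spleen, gene by gene, on 1 microarray each. All probes that were not controls entered. A probe was kept when the scanner software called it well above background (below, above background) for brain Treg, for spleen Treg or for both. Of 56605 probes on the array 31412 were kept, and 13846 of the 22911 genes with a named probe could be compared. The brain Treg library came from wild type mice with stroke, at day 14 after its onset, and the spleen Treg library from untreated mice. Libraries of the remaining CD4+ T cells (nonTreg) of the same origins, brain at day 14 after stroke and spleen of untreated mice, are given beside them. The study holds 8 arrays for 8 groups, 1 sample a group, all mouse, and the 4 others measured brain tissue of WT and DEREG mice after stroke or sham surgery. The labels used here give neither the mice's age nor strain beyond wild type or untreated, nor how Treg were separated from nonTreg, nor how many mice were pooled. With 1 array a group, no difference has a replicate check and no test was possible, so each value describes these libraries. Tissue, stroke and the handling of cells from each organ cannot be told apart, because all 3 differ between the libraries. In RNA pooled from many cells, fewer cells of a type and less RNA per cell cannot be told apart either.

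Treg are CD4+ T cells that restrain other immune cells. They depend on the transcription factor Foxp3, on interleukin 2 received through the receptor chain Il2ra, and on inhibitory receptors such as Ctla4. Treg of lymphoid organs circulate through blood and lymph with homing receptors such as Ccr7. Treg that settle in tissues are known to carry the interleukin 33 receptor Il1rl1, the transcription factors Pparg, Rora and Batf, and repair factors such as amphiregulin (Areg).

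Signals below are the scanner's processed intensities, which are background-subtracted brightness values. Differences are on the log2 scale, brain minus spleen, after each array was scaled to its 75th percentile, so 1 is 2-fold. The percentile corresponded to a signal of 1110 in brain Treg, 815.5 in spleen Treg, 1022 in brain nonTreg and 723.5 in spleen nonTreg. Because of that step, equal signals in both Treg libraries give a difference below 0. Where a gene was not well above background in one library, its difference is a lower bound, written "at least". A gene above background in only 1 library can only come out higher there, so its direction was fixed by that filter. The share of probes called well above background lay between 47.6% and 51.9% in the 4 T cell libraries. No spot was saturated, and repeated spots of a probe had a median SD of 0.039 to 0.042 (log2), which is technical error within an array only.

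Brain Treg differed from spleen Treg in 3991 of the 13846 genes at 2-fold or more, which is 28.8%. Of these, 2372 (17.1%) were higher in brain Treg and 1619 (11.7%) were lower. Counts in the gene lists below are to be read beside these shares of all genes, 17.1% higher and 11.7% lower. The difference was not symmetric at its extremes. At 10-fold or more 473 genes were higher and 33 lower, and at 32-fold or more 149 were higher and none lower. Among the 11873 genes above background in both libraries the counts at 2-fold were 1450 higher (12.2%) and 1383 lower (11.6%), so much of the excess of higher genes lay among the 1449 genes above background only in brain Treg. At 10-fold, 196 genes above background in both were higher and 21 lower. The median difference was 0.03 over all compared genes and -0.04 over those above background in both.

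**Figure D1:**
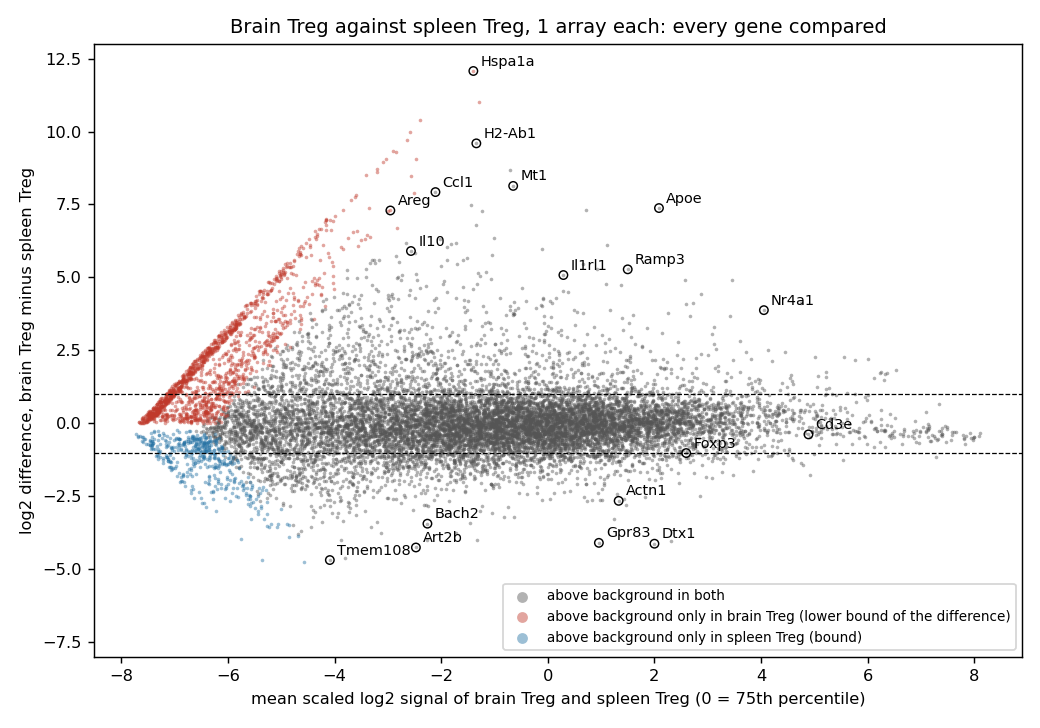
Each point is 1 of the genes compared, with the mean scaled log2 signal of brain Treg and spleen Treg on the horizontal axis and the log2 difference, brain Treg minus spleen Treg, on the vertical axis. Grey points were above background in both libraries, red only in brain Treg and blue only in spleen Treg (bounds), and dashed lines mark 2-fold; the upper side reaches 12.07 (Hspa1a, a bound) and the lower side -4.74 (Slc16a5, a bound), with Tmem108 at -4.68 the lowest gene above background in both.

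The labels were checked first against T cell and Treg genes. Cd3e, a chain of the T cell receptor complex, had a signal of 28868 in brain Treg and 27580 in spleen Treg, and 31236 in brain nonTreg and 26946 in spleen nonTreg. None of 12 T cell genes reached 2-fold, with differences from -0.39 to 0.57 and a median of -0.15. Foxp3 had 4717 in brain Treg and 7017 in spleen Treg, and 820.5 in brain nonTreg against 9.75 in spleen nonTreg, where it was not above background. Foxp3 was thus 2.03-fold lower in brain Treg than in spleen Treg, while both Treg libraries lay above both nonTreg libraries. Read from 1 probe, that difference (-1.02) lay just past 2-fold. Scaling to the 75th percentile over all probes instead moved differences by 0.03, which leaves Foxp3 within 2-fold.

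The Treg identity genes split between the 2 libraries, of which brain Treg had 8 of 20 higher at 2-fold, 4 lower and 8 within 2-fold (median 0.49). Several genes closely tied to Treg lay within 2-fold. Il2ra had 7299 in brain Treg and 5473 in spleen Treg, a difference of -0.03. Lrrc32, which holds latent TGF-beta on the Treg surface, differed by -0.12, Nrp1, a surface receptor, by 0.08 (1.02 by a further probe), and Ikzf2, the transcription factor Helios, by -0.22. Dusp4, a phosphatase of MAP kinases, stood highest, with 4910 in brain Treg and 206 in spleen Treg (4.13). The inhibitory receptors Tigit (2.29) and Ctla4 (2.24) and the integrin chain Itgae (2.09) followed. Ctla4 had 4023 in brain Treg and 624 in spleen Treg, and 1708 in brain nonTreg and 64.8 in spleen nonTreg. The lower members were Gpr83 (-4.10), an orphan receptor gene of Treg, and Izumo1r (-1.78), which encodes folate receptor 4. Ikzf4 (-1.05), the transcription factor Eos, and Foxp3 (-1.02) were also lower, by little more than 2-fold. The 3 further Ikzf4 probes gave -0.34 to -0.90, within 2-fold. Gpr83 had 522 in brain Treg and 6549 in spleen Treg, and the nonTreg pair differed in the same direction with 126 in brain nonTreg and 564 in spleen nonTreg. The nonTreg pair differed more on this list than the Treg pair, with a median of 2.86 and 17 of 20 genes higher in the brain; that difference between the pairs was not tested.

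Nearly all tissue Treg genes were higher in brain Treg, 24 of 25 at 2-fold, none was lower and the median was 3.01. Areg had a signal of 1898 in brain Treg and 7.94 in spleen Treg, where it was not above background, a difference of at least 7.29. It had 449 in brain nonTreg and 2.57 in spleen nonTreg, so brain Treg was the highest of the 4 libraries. Il1rl1 had 7911 in brain Treg and 172 in spleen Treg (5.08), and 2270 in brain nonTreg and 2.49 in spleen nonTreg. The 2 further Il1rl1 probes gave at least 5.93 and 4.83, close to the probe used. Il10, the inhibitory cytokine, had 1450 in brain Treg and 17.8 in spleen Treg (5.91), and Pparg, a lipid-sensing nuclear receptor of fat Treg, had 1500 in brain Treg and 19.0 in spleen Treg (5.85). Ccr8, a chemokine receptor of skin and tissue Treg, had 1575 in brain Treg and 39.0 in spleen Treg (4.89), while Ccr6 differed by 1.30. These genes were low but above background in spleen Treg, apart from Areg and Pcsk1, a prohormone convertase gene (at least 4.06). Klrg1 (4.01), a receptor of terminally differentiated T cells, was 4.48 by a further probe. The transcription factor genes Nfil3 (4.07), Rora (3.69), Irf4 (2.42), Prdm1 (2.05) and Gata3 (1.74) were higher, Batf lay at 1.01, and Maf at 0.25 was the member within 2-fold. Penk, which encodes the opioid precursor proenkephalin, had 7176 in brain Treg and 1076 in spleen Treg (2.29). The brain nonTreg library also stood above its spleen counterpart on 21 of the 25 genes (median 3.09), and brain Treg exceeded brain nonTreg at 2-fold in 11 of 25 and was 2-fold lower in none.

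A promoter window is shown for Areg because it is the growth factor gene of this set and its window holds an exact cyclic AMP response element. The letters searched were TGACGTCA, the same on both strands, and 1.77% of 27025 genes with a window hold them, or 2.98% of those compared here. The match, in capitals, is a description of these letters and not of a site in use. Windows here are the 250 bases before the gene start in RefSeq, build GRCm38.p6.

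Areg, chr5:91139349-91139598, plus strand: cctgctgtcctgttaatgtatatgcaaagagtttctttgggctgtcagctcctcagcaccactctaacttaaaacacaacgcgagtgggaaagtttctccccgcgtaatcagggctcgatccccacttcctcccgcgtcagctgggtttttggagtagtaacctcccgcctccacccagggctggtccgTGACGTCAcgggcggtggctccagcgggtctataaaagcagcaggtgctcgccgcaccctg

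**Figure D2:**
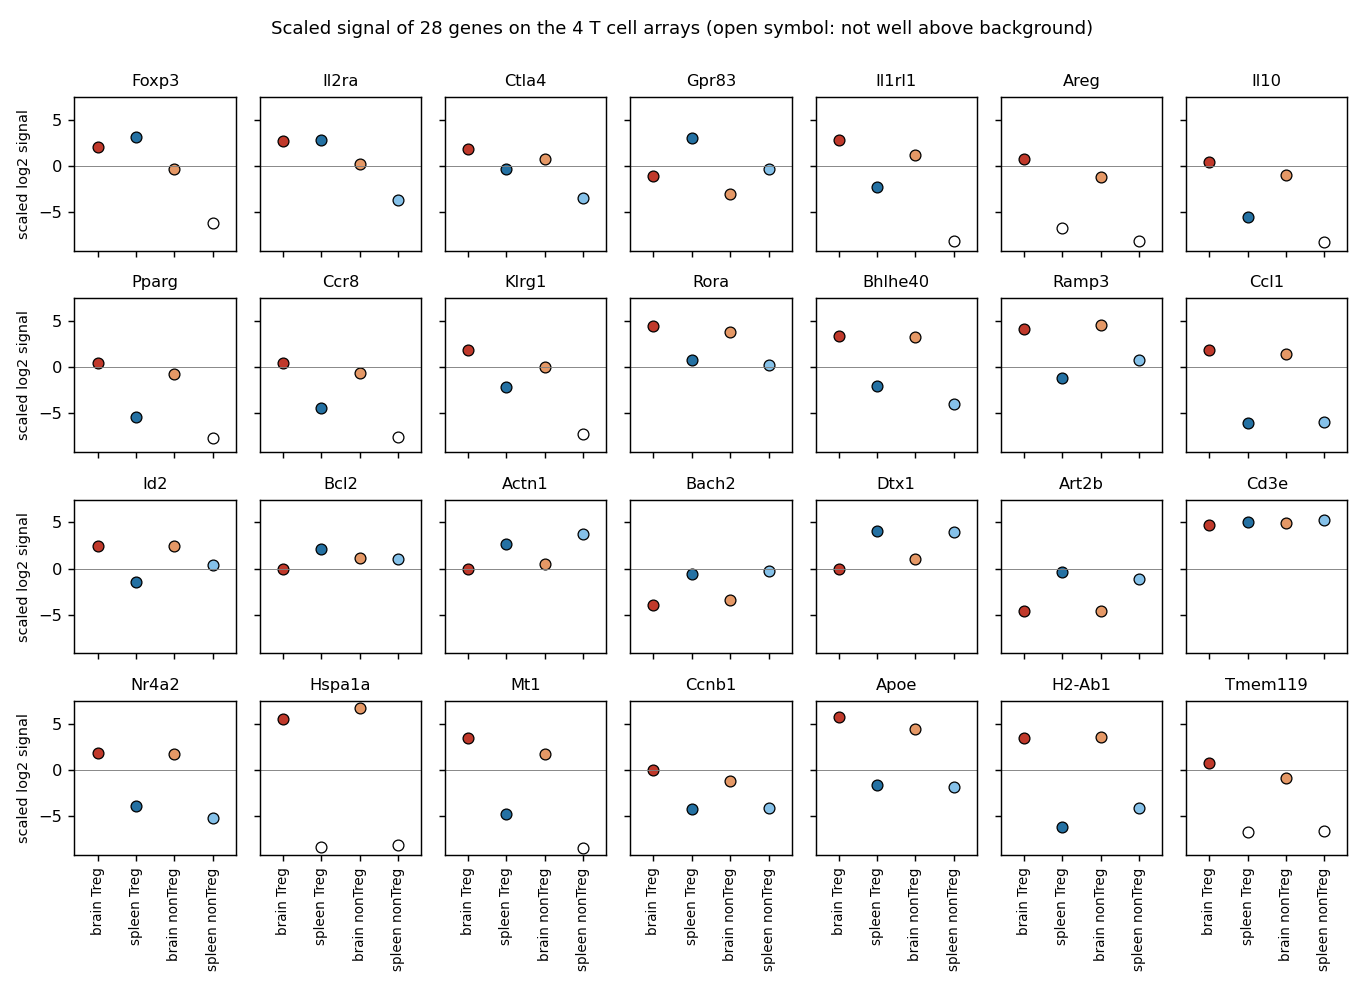
Scaled log2 signal (vertical axis, 0 is the array's 75th percentile) of 28 genes on the 4 T cell arrays, in the order brain Treg, spleen Treg, brain nonTreg and spleen nonTreg; open symbols were not well above background. Il1rl1, Areg, Il10, Pparg and Ccr8 are highest in brain Treg, Foxp3 is highest in spleen Treg, Actn1, Bach2, Dtx1 and Art2b are higher in both spleen libraries than in both brain libraries, and Cd3e is level across all 4.

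Genes of circulating and resting T cells were lower in brain Treg. Of 23 genes of lymphoid recirculation and the naive state 13 were lower at 2-fold and 2 higher, with a median of -1.17; in the nonTreg pair 15 were lower and 2 higher (median -1.38). Bach2, a repressor that holds lymphocytes in a resting state, had 70.5 in brain Treg and 561 in spleen Treg (-3.44). A further Bach2 probe gave -2.61. Igfbp4 (-2.88), Actn1 (-2.66), Klf3 (-2.54) and Id3 (-2.03) were also lower, as were the transcription factor genes Foxp1 (-1.78), Satb1 (-1.65), Lef1 (-1.33) and Tcf7 (-1.17; -0.91 by a further probe). Some members lay within 2-fold. Ccr7, the lymph node chemokine receptor, differed by -0.38, S1pr1, the receptor for exit from lymph nodes, by -0.48, and Klf2, the transcription factor of both, by 0.47. The 2 higher members were Il7r (1.14), a survival receptor, and Ly6c2 (1.01).

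The lowest genes above background in both libraries were led by Tmem108 (-4.68), a membrane protein gene, with 12.9 in brain Treg and 243 in spleen Treg. Next came Susd4 (-4.60), a complement regulator, and Art2b (-4.25), an ADP-ribosyltransferase of the T cell surface, with 45.7 in brain Treg and 641 in spleen Treg. Dtx1, an E3 ligase of the Notch pathway, was the lower gene with the highest spleen signal in this group, at 1064 in brain Treg and 13628 in spleen Treg (-4.12). Gprc5b (-4.01), Gata1 (-4.01), Sorcs2 (-4.01), Airn (-3.75), Serpina9 (-3.69), Pgpep1l (-3.57), Sfta2 (-3.50), Arhgap20 (-3.39) and Gucy1a1 (-3.37) followed, besides Gpr83 and Bach2. Gata1, a transcription factor best known from red cell precursors, had 110 in brain Treg and 1302 in spleen Treg, and 23.7 in brain nonTreg and 166 in spleen nonTreg. Arhgap20 and Gucy1a1 were low in spleen nonTreg as well (29.9 and 22.1), so spleen Treg stood alone above the other 3 libraries. Among genes above background only in spleen Treg, Slc16a5, a monocarboxylate transporter gene, was at least 26.7-fold lower and Art4, another ADP-ribosyltransferase gene, at least 25.9-fold lower. Sostdc1, Ecel1, Stac3, Slc22a2, Khdc1a and Iglon5 were at least 15.5-fold to 11.2-fold lower, but a further Ecel1 probe was above background only in brain Treg (at least 0.05).

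Markers of other cells were high in the brain Treg library. Of 14 microglia markers 12 were higher in brain Treg at 2-fold. Their median was 5.38, but 1.86 over the 4 above background in both libraries and 2.92 after normexp, another way to correct the background that leaves dim signals less far apart. All 14 were above background in brain Treg, 4 in spleen Treg, 14 in brain nonTreg and 5 in spleen nonTreg. Their summed signal was 83150 in brain Treg and 22992 in spleen Treg, and 39740 in brain nonTreg and 20183 in spleen nonTreg. Sparc had 16174 in brain Treg and 2.01 in spleen Treg (at least 10.39), and Trem2 (at least 9.34), Cx3cr1 (at least 9.30), Tmem119 (at least 7.27), Fcrls (at least 6.94), Sall1 (at least 2.32) and P2ry12 (at least 4.63) were above background only in brain Treg. Siglech went the other way by the probe used (-1.08) but was at least 4.43 higher by a further probe.

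Macrophage and monocyte markers were higher in 18 of 19 (median 5.40, or 2.94 after normexp), with a summed signal of 143140 in brain Treg and 13566 in spleen Treg, and 101502 in brain nonTreg and 15951 in spleen nonTreg. Of the 19, 15 were above background only in brain Treg, which fixed their direction, and 4 in both Treg libraries. C1qa (at least 8.63), C1qb (at least 8.49) and C1qc (at least 9.06), the chains of complement C1q, differed by nearly the same bound, and Cd163 was not above background in any of the 4 libraries. Genes of disease-associated phagocytes were higher in 13 of 15 (median 5.08, or 2.15 over the 9 above background in both libraries), led by Tyrobp (at least 9.72), the signalling partner of Trem2. Csf1r had 22916 in brain Treg and 106.8 in spleen Treg (7.30), but a further probe gave 2.27. Aif1, which encodes the microglial protein Iba1, differed by 6.31. Set against brain Treg, the brain nonTreg library had lower signals for most of both lists, as 11 of 14 microglia and 13 of 19 macrophage markers were 2-fold higher in brain Treg (medians 1.30 and 1.21).

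Vessel and stromal markers had lower medians than microglia and macrophage markers. Of 10 endothelial markers compared, 7 were higher in brain Treg (median 1.72, or 0.53 after normexp), with Cldn5, a tight junction gene, at 1155 in brain Treg and 1.82 in spleen Treg (at least 6.58), and 1764 in brain nonTreg and 2.02 in spleen nonTreg. Pericyte genes were higher in 6 of 7 (median 2.12, or 0.42 after normexp) and fibroblast and meningeal genes in 5 of 8 (median 2.55, or 0.81 after normexp). Above background only in brain Treg were 8 of the 10 endothelial and 4 of the 7 pericyte genes. Dendritic cell genes were higher in 9 of 11 (median 3.02, or 0.61 over the 3 above background in both libraries). Markers of lymphocytes other than CD4+ T cells were mixed, with 5 of 13 CD8 T and NK cell genes and 3 of 7 B cell genes higher in brain Treg, 0 and 1 lower, and medians of 0.80 and 0.11. Of these 13 and 7 genes, 7 and 4 were above background only in brain Treg. Cd8a had 102 in brain Treg and 3.79 in spleen Treg (at least 3.08), and 297 in brain nonTreg. Plasma cell genes were higher in 7 of 8 (median 1.85), with Jchain at least 6.34. Those higher include Irf4, Prdm1 and Xbp1, which also stand on the tissue Treg list or the unfolded protein response list. Of 8 gamma delta T and innate lymphoid cell genes 7 were higher (median 1.35), among them Gata3 and Il7r, which stand on T cell lists here as well. Of 8 neutrophil genes 3 were higher and 2 lower (median 0.14), and of 4 mast cell and basophil genes 2 were higher (median 1.72). Erythroid and platelet genes were higher in 4 of 7 and lower in 1 (median 1.47, but -0.25 over those above background in both libraries). Neural markers were above background in part. Of 12 astrocyte genes 5 were above background in brain Treg, and Gfap, Slc1a2 and Gja1 were not. Of 13 neuron genes 5 were above background, and Rbfox3, Syt1, Gad1 and Slc17a7 were not. Of 12 oligodendrocyte genes 8 were, but not Sox10, Olig1 or Olig2, and Mbp differed by -0.17. Higher and lower genes were even in number among the astrocyte (1 and 1), neuron (1 and 1), oligodendrocyte (2 and 2) and choroid plexus (2 and 2) markers compared. How much the cells behind these markers contributed to the other gene groups was not tested.

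**Figure D3:**
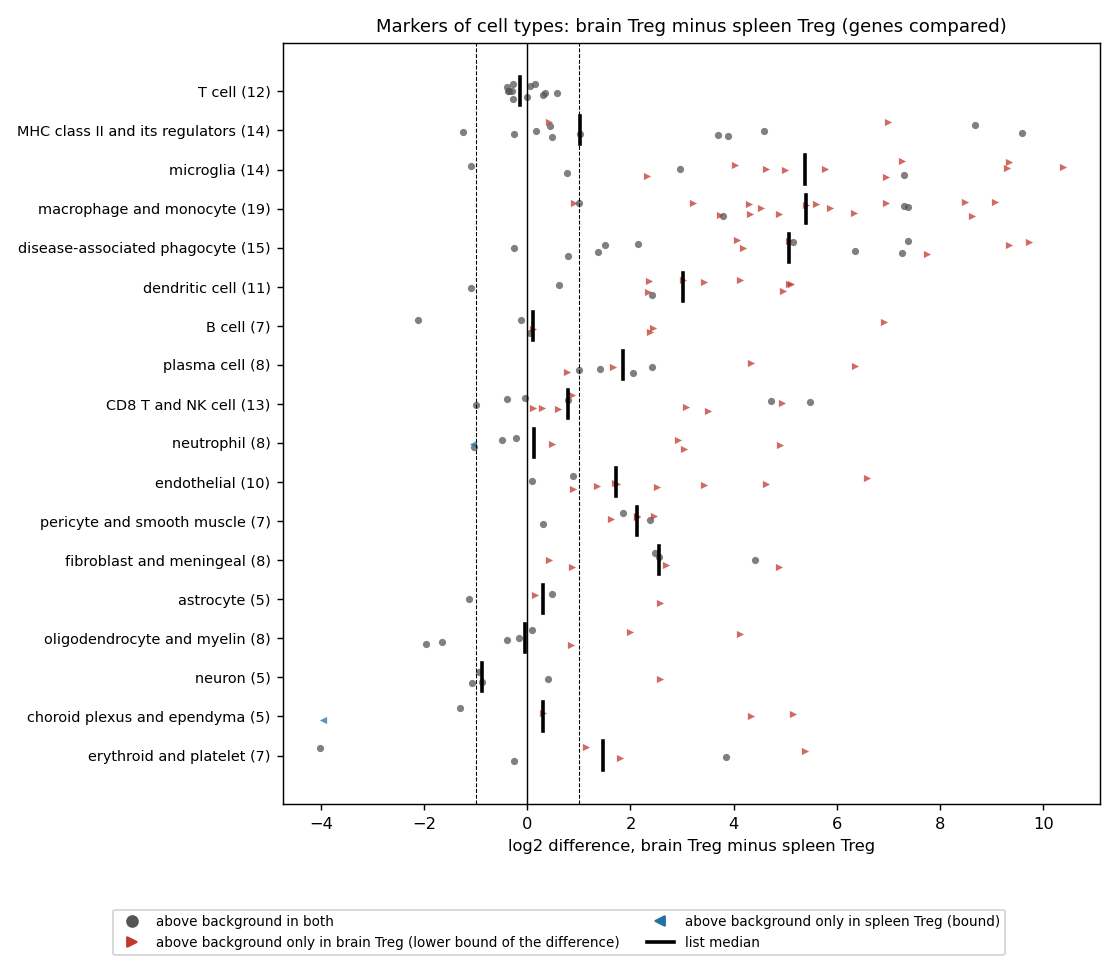
Each point is 1 marker gene and the horizontal axis gives its log2 difference, brain Treg minus spleen Treg, with the number of genes compared after each list name. Circles were above background in both libraries, triangles are bounds, black bars are list medians and dashed lines 2-fold; T cell genes lie between -0.39 and 0.57, while microglia and macrophage lists have medians of 5.38 and 5.40.

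MHC class II genes, which present antigen to CD4+ T cells and are made mainly by professional antigen-presenting cells, held the 2 highest measured differences. H2-Ab1 had 12186 in brain Treg and 11.6 in spleen Treg (9.59), and 11942 in brain nonTreg and 42.7 in spleen nonTreg. H2-Eb1 had 13791 in brain Treg and 24.9 in spleen Treg (8.67), and H2-Aa 1530 in brain Treg and 1.84 in spleen Treg (at least 6.98). The peptide loading genes H2-DMb1 (4.58) and Cd74 (3.88), the invariant chain, and Ciita (3.69), the regulator of the class, were higher with them. H2-Ob, an inhibitor of peptide loading, was lower (-1.24), and H2-Oa (0.47) and the constitutive regulators Rfx5 (0.45), Rfxap (0.18) and Rfxank (-0.25) lay within 2-fold. In all, 7 of 14 were higher and 1 lower (median 1.01). The brain Treg and brain nonTreg libraries were level on this list (median -0.07, none of 14 higher and 1 lower in brain Treg). In that comparison the medians were 1.30 and 1.21 for microglia and macrophage markers and -0.51 and -0.57 for dendritic cell and B cell markers. Which cells carried the class II signal was not tested.

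Promoter windows of H2-Aa and H2-Eb1 are shown because both of these class II genes differed widely (at least 6.98 and 8.67). Capitals mark the Y box, searched as CTGATTGG on both strands. A window of 4.43% of the 27025 genes that have one holds it, as does one of 6.07% of such genes compared here and of 4 of 10 on the MHC class II list. H2-Ab1 is named only.

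H2-Aa, chr17:34287824-34288073, minus strand: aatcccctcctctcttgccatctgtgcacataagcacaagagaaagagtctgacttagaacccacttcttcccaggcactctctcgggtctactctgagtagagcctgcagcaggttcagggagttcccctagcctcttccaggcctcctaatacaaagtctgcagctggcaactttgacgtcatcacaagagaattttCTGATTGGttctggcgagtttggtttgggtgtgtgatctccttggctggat
H2-Eb1, chr17:34305617-34305866, plus strand: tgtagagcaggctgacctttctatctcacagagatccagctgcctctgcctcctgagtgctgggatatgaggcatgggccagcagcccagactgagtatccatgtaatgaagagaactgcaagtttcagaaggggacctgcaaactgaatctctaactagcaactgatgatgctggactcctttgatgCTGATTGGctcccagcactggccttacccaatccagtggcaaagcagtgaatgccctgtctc

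Metallothioneins, small proteins that bind zinc and copper, ranked among the highest genes. Mt1 had 11867 in brain Treg and 31.0 in spleen Treg (8.14), and 3454 in brain nonTreg and 2.11 in spleen nonTreg. Mt2 had 4591 in brain Treg and 30.2 in spleen Treg (6.80), whereas Mt3 differed by 0.22 and Mt4 was not above background in any of the 4. A further Mt1 probe, above background only in brain Treg, gave at least 4.20. Trf, which encodes transferrin, had 5440 in brain Treg and 22.4 in spleen Treg (7.48). Slc11a1 (at least 5.19), an iron transporter of phagosomes, Lcn2 (at least 4.02), Cp (at least 3.86) and the iron exporter Slc40a1 (at least 2.73) were above background only in brain Treg. Ferritin heavy chain Fth1 (1.22) and Hmox1 (1.06) were a little over 2-fold higher, and Tfrc, the transferrin receptor, differed by 0.78 (1.79 by a further probe). Altogether 9 of 20 genes of metal and haem handling were higher and none lower (median 0.67). Mt1 and Mt2 were 1.66 and 1.87 higher in brain Treg than in brain nonTreg, beside medians of 1.30 and 1.21 for the microglia and macrophage markers. Which cells carried the metallothionein signal was not tested.

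The Mt1 and Mt2 windows are shown as the 2 metallothionein genes that stood high together. Capitals mark the core of the metal response element, searched as TGCACNC or TGCGCNC on both strands. It stands in a window of 23.8% of all genes that have one and of 32.2% of those compared here, so a single match is common. The Mt2 window holds 3 and the Mt1 window 1, and bases beyond the windows were not searched.

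Mt1, chr8:94178839-94179088, plus strand: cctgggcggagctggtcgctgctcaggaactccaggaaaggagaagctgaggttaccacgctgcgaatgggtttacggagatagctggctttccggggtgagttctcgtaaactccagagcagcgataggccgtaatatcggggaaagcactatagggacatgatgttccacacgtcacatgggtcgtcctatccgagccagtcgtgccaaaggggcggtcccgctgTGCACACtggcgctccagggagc
Mt2, chr8:94172368-94172617, plus strand: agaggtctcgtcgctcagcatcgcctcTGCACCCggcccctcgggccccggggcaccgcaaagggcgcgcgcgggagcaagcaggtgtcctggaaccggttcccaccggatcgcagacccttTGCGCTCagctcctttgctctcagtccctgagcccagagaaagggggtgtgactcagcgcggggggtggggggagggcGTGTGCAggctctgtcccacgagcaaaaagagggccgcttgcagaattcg

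Heat shock genes gave the 2 largest bounds of the comparison. Hspa1a, an inducible HSP70 chaperone gene, had 52136 in brain Treg and 2.50 in spleen Treg, where it was not above background (at least 12.07). Its signal was higher still in brain nonTreg, at 106099, against 2.54 in spleen nonTreg. Hspa1b had 24765 in brain Treg and 6.06 in spleen Treg (at least 2049-fold higher), and 39400 in brain nonTreg and 2.41 in spleen nonTreg. The 2 genes are near-identical copies, so their probes may share signal and the split between them is uncertain. Among measured members Hspb1 (3.73), Hsph1 (3.42), Hspa2 (3.29), Dnajb1 (2.20), Bag3 (1.95) and Hsp90aa1 (1.86) were higher, each in the brain nonTreg library too. Chaperones that cells make without stress were mixed. Hspa8 was at 1.38, or 1.76 to 2.63 by its 3 further probes, and Hspd1 at 1.30, while its partner Hspe1 was at 0.43 and Hsp90ab1 at 0.47. The stress-sensing factor Hsf1 differed by -0.56. In all 15 of 26 were higher and none lower (median 1.34; nonTreg pair 1.53). Brain Treg was 2-fold above brain nonTreg in none of the 26.

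The Hspa1a and Hspa1b windows are shown to let the copies be compared, and they differ at 3 of 250 bases (98.8% identical). Capitals mark the core of the heat shock element, searched as GAANNTTC or TTCNNGAA on both strands. It stands in a window of 14.5% of the 27025 genes that have one, of 12.5% of the compared genes that have one, and of 10 of 21 heat shock genes.

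Hspa1a, chr17:34972157-34972406, minus strand: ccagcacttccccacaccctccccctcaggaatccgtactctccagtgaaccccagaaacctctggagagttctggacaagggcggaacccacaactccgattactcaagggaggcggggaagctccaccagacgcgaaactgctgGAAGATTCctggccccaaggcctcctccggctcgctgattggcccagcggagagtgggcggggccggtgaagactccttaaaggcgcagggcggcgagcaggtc
Hspa1b, chr17:34959239-34959488, minus strand: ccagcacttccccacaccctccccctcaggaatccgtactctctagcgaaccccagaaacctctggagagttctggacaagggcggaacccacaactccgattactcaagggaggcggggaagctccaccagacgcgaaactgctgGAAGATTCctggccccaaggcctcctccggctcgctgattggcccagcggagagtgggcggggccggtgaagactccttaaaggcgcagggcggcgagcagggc

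Immediate early genes, which cells switch on within minutes of a stimulus, were higher in 19 of 26 and lower in 1 (median 2.45; nonTreg pair 2.90). Atf3 had 5129 in brain Treg and 2.06 in spleen Treg (at least 8.73). Nr4a2 (5.77), Fosl2 (5.61), Fosb (5.45), Maff (4.98), Klf4 (4.96) and Fos (4.52) followed. Nr4a1, an early reporter of T cell receptor signalling, had 70723 in brain Treg and 3530 in spleen Treg (3.88), and Nr4a3 differed by 4.36, or 1.98 by a further probe. Egr2 was lower (-1.25), with 655 in brain Treg and 1143 in spleen Treg, Egr3 differed by -0.50 and Myc by -0.05, while Egr1 was at 1.24. Of the T cell receptor signalling genes 0 of 24 were higher and 1 was lower (median -0.28). The lower member was Nfatc1 (-1.63), for which a further probe gave -0.20.

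Among the NF-kappaB genes Tnfaip3, which encodes the inhibitor A20, had 36540 in brain Treg and 882 in spleen Treg (4.93), and Nfkbid (2.72), Nfkbiz (2.68; 0.90 by a further probe) and Nfkbia (2.26), members of the I-kappa-B family, were higher. The DNA-binding subunits were less so, with Rel at 2.07, Nfkb2 at 1.01, Relb at 0.26, Nfkb1 at 0.20 and Rela at -0.16. Across the list 11 of 24 were higher and none lower (median 0.47).

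**Figure D4:**
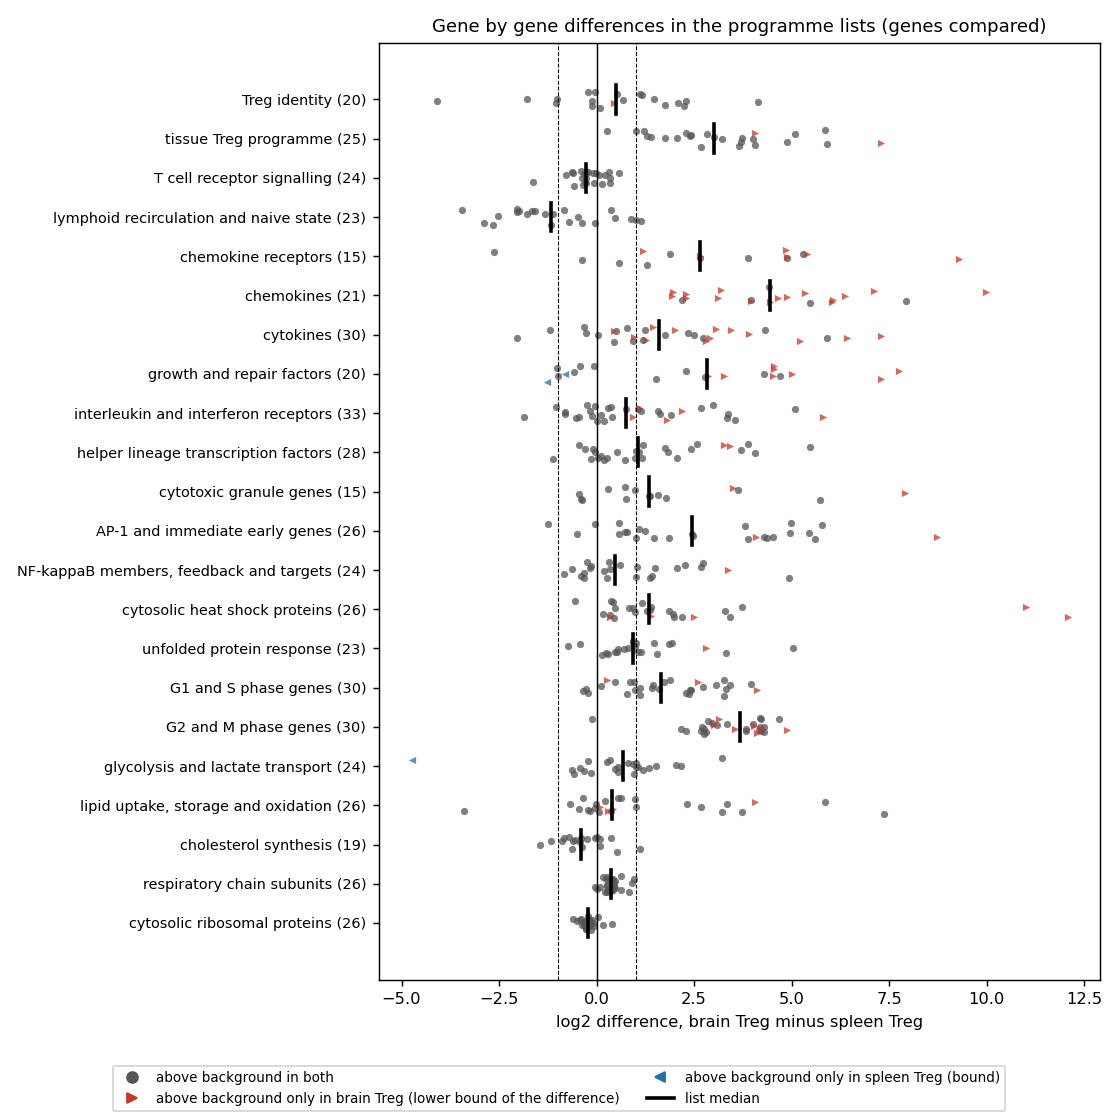
Each point is 1 gene of a programme list and the horizontal axis gives its log2 difference, brain Treg minus spleen Treg, with the number of genes compared after each list name. Circles were above background in both libraries, triangles are bounds, black bars are list medians and dashed lines 2-fold; chemokines (median 4.44) and G2 and M phase genes (3.69) lie farthest right, recirculation genes (-1.17) farthest left, and ribosomal protein genes within 2-fold.

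The 21 chemokine genes compared all reached 2-fold in the direction of brain Treg (median 4.44, or 2.18 after normexp), and 16 of them were above background only there. The direction of those 16 was fixed by the filter, and the 5 above background in both libraries had a median of 4.42. Ccl4 had 12329 in brain Treg and 2.05 in spleen Treg (at least 9.99), and Ccl3 was at least 7.12 higher. Ccl1, the ligand of Ccr8, had 4015 in brain Treg and 12.1 in spleen Treg (7.92). Ccl12 (at least 6.38), Ccl2 (at least 6.07), Ccl6 (at least 6.02) and Ccl9 (at least 5.34) are chemokines that phagocytes are known to make. Which cells gave these signals was not tested. T cell chemokines were higher as well, with Xcl1 at 5.48 and Ccl5 at 4.42; Ccl5 had 37480 in brain Treg and 1288 in spleen Treg, and 61136 in brain nonTreg. Ccl11 and Ccl22 were not above background in any of the 4 libraries.

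Chemokine receptors were higher in 12 of 15 (median 2.66, or 1.88 over the 9 above background in both libraries). The other 6 were above background only in brain Treg, which fixed their direction. Cxcr6, a receptor of tissue-resident T cells, had 13061 in brain Treg and 246 in spleen Treg (5.29), and Ccr2 (at least 4.87), Cxcr4 (3.87), Ccr4 (2.64) and Cxcr3 (1.88) were higher. Cxcr5, the receptor for B cell follicles, was lower (-2.62), with 414 in brain Treg and 1869 in spleen Treg. Ccr9 (0.58) and Ccr7 lay within 2-fold. Integrin genes were higher in 10 of 22 and lower in 1, with Itgb5 at 5.66, Itgax at least 5.08, Itgb1 at 1.90 and Itgav at 1.23. Itga6 was the lower member (-1.43), and Itgb8, which releases active TGF-beta, differed by -0.95.

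Cytokine genes were higher in 19 of 30 and lower in 2, with a median of 1.60 that was 0.94 over those above background in both libraries and 0.87 after normexp. The largest bound was that of Il17a, with 1898 in brain Treg and 2.34 in spleen Treg (at least 7.30), and 2352 in brain nonTreg and 2.53 in spleen nonTreg. Ifng had 5521 in brain Treg and 204 in spleen Treg (4.31), but 19037 in brain nonTreg, the highest of the 4. Csf2 (at least 5.21), Il5 (at least 3.91), Il2 (at least 3.45), Il22 (at least 3.05) and Il4 (2.73) were higher too. Il1b (at least 6.41) and Il6 (at least 2.80) are known as products of phagocytes as well. Il16 (-2.04) and Lta (-1.19) were lower, Tgfb1 differed by 0.50, and Il9 was not above background in any library.

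Receptors for these cytokines were mixed. In the interleukin 1 and interleukin 18 group the decoy receptor Il1r2 was at 2.99, Il18rap at 3.33, Il18r1 at 1.62 and Il1r1 at least 2.18, but the shared chain Il1rap was at -0.46. Interferon gamma receptor chain Ifngr1 was at 1.90, Il10ra at 1.57 and Il12rb1 at 0.76. The interleukin 6 receptor was lower, with Il6ra at 4568 in brain Treg and 12135 in spleen Treg (-1.85; -0.94 by a further probe) and its signalling chain Il6st at -1.03. Among chains shared by several receptors Csf2rb, which myeloid cells also carry, was at least 5.81 higher, while Il2rb was at 0.02 and Il2rg at 0.38. In all 15 of 33 receptors were higher and 2 lower, with a median of 0.76 that was 0.32 over those above background in both libraries and 0.25 after normexp.

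Growth and repair factors other than Areg were higher in part. Spp1, the matrix protein osteopontin (at least 7.75), Tff1 (at least 5.01), Pdgfb (4.71), Pdgfa (at least 4.55), Igf1 (at least 4.54) and Gdf15 (at least 4.52) stood high. Spp1 and Igf1 are also known from activated phagocytes. Cntf (-0.43) and Vegfb (-0.06) lay within 2-fold, Egf was lower (-1.01), and Bdnf, Ereg, Tgfa and Nrg1 were not above background in either Treg library. The list had 13 of 20 higher and 2 lower. Its median was 2.83, but 0.73 over the 10 above background in both libraries and 1.44 after normexp, and 18 of 24 were above background in brain Treg against 12 in spleen Treg.

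Transcription factors of helper T cell lineages were higher in 15 of 28 and lower in 1 (median 1.05). Bhlhe40, a factor of cytokine-producing T cells, had 11730 in brain Treg and 195 in spleen Treg (5.46), and Id2, which opposes E proteins, had 5937 in brain Treg and 298 in spleen Treg (3.87). Its relative Id3 went the other way, as given above. Tbx21 (2.57), the factor of T helper 1 cells, and Ahr (1.83), a receptor of environmental ligands, were higher with Gata3, while Bcl6 (0.20) and the STAT genes Stat3 (0.04), Stat4 (0.52), Stat5a (-0.13), Stat5b (-0.10) and Stat6 (0.12) lay within 2-fold. Cytotoxic granule genes were higher in 8 of 15 and lower in none (median 1.35, or 0.97 over the 13 above background in both libraries). Gzmb was at least 7.91 higher and Gzma was at 5.73, whereas perforin, Prf1, differed by -0.39. Gzmb had 3020 in brain Treg and 9.24 in spleen Treg, and 1871 in brain nonTreg.

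Inhibitory receptors besides Ctla4 and Tigit were led by Havcr2 (at least 5.11), which phagocytes carry too, followed by Pdcd1 (1.40), the receptor PD-1, with 6517 in brain Treg and 1819 in spleen Treg, and Lag3 (1.11). Of 19 checkpoint genes 7 were higher and none lower (median 0.53). Among costimulatory receptors of the TNF receptor family Tnfrsf4 (1.75), Tnfrsf1b (1.91), Tnfrsf9 (1.30) and Tnfrsf18 (1.12) were higher, and Tnfrsf14 (-1.30; -0.83 by a further probe) and Cd27 (-1.13) lower, in a list with 8 of 19 higher and 2 lower. Tnfrsf4, which encodes OX40, had 75848 in brain Treg and 16588 in spleen Treg.

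Survival genes also split. Bcl2, which blocks apoptosis, had 1108 in brain Treg and 3553 in spleen Treg (-2.13; a further probe gave -2.02), and 2224 in brain nonTreg and 1526 in spleen nonTreg, a nonTreg difference of 0.05. Mcl1 was also lower (-1.01), with a nonTreg difference of -0.42. The relatives Bcl2l1 (2.09) and Bcl2a1d (2.54) were higher in brain Treg, as was the death-promoting Pmaip1 (4.29). Of 23 genes 7 were higher and 3 lower (median 0.31).

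Most genes of cell division were higher in brain Treg. Of 30 G2 and M phase genes 29 reached 2-fold (median 3.69, or 2.32 after normexp; nonTreg pair 2.91 with 29 of 30), and of 30 G1 and S phase genes 20 were higher and none lower (median 1.66; nonTreg pair 1.44). Mki67, the proliferation marker, had 6122 in brain Treg and 317 in spleen Treg (3.83), and 3554 in brain nonTreg and 213 in spleen nonTreg. Cdk1 (at least 4.87), Ube2c (4.68), Ccnb1 (4.30) and Rrm2 (3.42) were among the highest, and Hmmr (-0.12) was the G2 and M member within 2-fold by the probe used, although its 2 further probes gave at least 4.41 and 4.11. Cyclin genes of early G1 were uneven, with Ccnd1 at least 4.11 higher and Ccnd2 (-0.35; -1.25 by a further probe) and Ccnd3 (-0.21) within 2-fold. Cell cycle inhibitors were higher in 7 of 11 and lower in none (median 1.39, or 0.76 over the 8 above background in both libraries). Cdkn1a, the inhibitor p21, had 1599 in brain Treg and 11.3 in spleen Treg, where it was not above background (at least 6.70). Cdkn2a was at least 3.65 higher and Cdkn1b differed by 0.06. The G2 and M list was 0.71 higher in brain Treg than in brain nonTreg at its median, with 4 of 30 genes at 2-fold. As a description of their promoters, the letters TTTGAA, searched on both strands, stood in the windows of 11 of 24 G2 and M genes and 3 of 23 G1 and S genes. The share was 18.3% over all genes with a window and 13.8% over those compared here. CCAAT stood in 21 of 24 and 14 of 23, against 37.5% and 40.1%.

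Glycolysis genes were higher in 9 of 24 and lower in 1 (median 0.68), from Hk2 (3.22), the inducible hexokinase, and the lactate exporter Slc16a3 (2.03) to Pgk1 (1.35), Gapdh (1.18) and Aldoa (1.02). Respiratory chain genes were all within 2-fold (0 of 26 either way, median 0.38). Cytosolic ribosomal protein genes were within 2-fold too (0 of 26, median -0.21), from -0.61 for Rps19 to 0.39 for Rps2. Lipid genes had 8 of 26 higher and 1 lower (median 0.39). Apoe, a lipid carrier made by phagocytes and glia, had 60756 in brain Treg and 268 in spleen Treg (7.38; 8.32 by a further probe), and 21844 in brain nonTreg and 205 in spleen nonTreg. The triglyceride synthesis genes Dgat2 (3.72) and Dgat1 (3.34), the lipid droplet gene Plin2 (3.20) and Fabp5 (2.67), a fatty acid carrier, were higher. Cholesterol synthesis genes had 1 of 19 higher and 2 lower (median -0.41).

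Stress of the endoplasmic reticulum and low oxygen were read from 2 further lists. Unfolded protein response genes were higher in 10 of 23 (median 0.93), with Asns, asparagine synthetase, at 5.04, Ppp1r15a at 3.31, Atf4 at 1.14, Xbp1 just past 2-fold (2.09 and 2.42 by further probes) and Ddit3 at 0.46. Hypoxia-responsive genes were higher in 9 of 21 and lower in 1 (median 0.78), with Epas1 at 3.43, Hif1a at 2.09, Vegfa at least 3.27 (but 1 of its 3 further probes went the other way, with a bound of -0.67) and Pdk1 at -1.45. Interferon response genes were higher in 11 of 28 and lower in 1 (median 0.73), with Cxcl10 at 3.95 and Socs1 at -1.26. Genes of TGF-beta activation and signalling were higher in 6 of 21 and lower in 1 (median 0.68), and antioxidant enzyme genes were higher in 3 of 19 and lower in none (median 0.58). The antioxidant share, 15.8% higher, lay near the 17.1% of all genes compared.

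Receptors for lipid mediators and nerve-derived signals held several large differences. Ramp3, a partner of the calcitonin receptor-like receptor, had 19542 in brain Treg and 370 in spleen Treg (5.28), and 23292 in brain nonTreg and 1251 in spleen nonTreg, while that receptor, Calcrl, differed by 0.21. Ltb4r1, the leukotriene B4 receptor, had 2651 in brain Treg and 27.5 in spleen Treg (6.14), and Alox5ap, which serves leukotriene synthesis, had 1492 in brain Treg and 15.1 in spleen Treg (6.18). Ptgs1 (at least 6.47), Ltc4s (3.22) and Hpgd (at least 3.55) were higher, and Oprm1, the mu opioid receptor gene, was lower (-1.13). The list had 11 of 18 higher and 1 lower. Its median was 1.97, but 1.12 over the 13 above background in both libraries and 0.97 after normexp. Of 24 serotonin, catecholamine and related genes 7 were compared and 17 were above background in neither library, among them Htr7, with 12.2 in brain Treg and 2.18 in spleen Treg. Tph1, a serotonin synthesis enzyme, had 27.1 in brain Treg and 2.34 in spleen Treg (at least 1.17), near the limit of detection.

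Enzymes and receptors of extracellular nucleotides had 7 of 19 higher and 3 lower (median 0.22, or -0.11 over those above background in both libraries). Of the ecto-enzymes of adenosine production Entpd1 (CD39) differed by 0.69, or 1.49 by a further probe, and Nt5e (CD73) by -0.11, and the adenosine receptor Adora2a was at 1.69. The lower members, 15.8% beside 11.7% of all genes compared, were Art2b and Art4, given above, and P2rx7. P2rx7, an ATP receptor of T cells, had 1773 in brain Treg and 3920 in spleen Treg (-1.59), and 1610 in brain nonTreg and 1286 in spleen nonTreg (-0.17). P2ry12 (at least 4.63), a receptor of microglia, led the higher members.

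The other highest measured genes were Fcer1g (7.27), an Fc receptor chain of myeloid cells, Lgals3 (6.35), Syngr1 (6.17), Ctla2a (6.12) and Igfbp7 (6.06). Ctla2a, a protease inhibitor gene of activated T cells, had 19912 in brain Treg and 210 in spleen Treg, and 16789 in brain nonTreg and 257 in spleen nonTreg. Syngr1, a vesicle protein gene, had 2856 in brain Treg and 29.2 in spleen Treg, and 821 in brain nonTreg. It is thus among the genes for which brain Treg stood highest of the 4 libraries, as 1588 of the 2372 higher genes did.

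The same contrast in nonTreg, 13578 genes compared, gave 2389 genes (17.6%) higher in the brain and 1618 (11.9%) lower. Of 13131 genes compared in both, 1741 were higher in the brain in both, which is 77.1% of those higher in Treg and 75.2% of those higher in nonTreg. The genes lower in both numbered 1026, which is 67.4% of those lower in Treg and 68.2% of those lower in nonTreg. Bounds are included in these counts. A gene above background in neither spleen library could only come out higher in the brain, so part of the overlap was fixed by the filter. The size of that part was not counted. The 4 arrays share no sample, but each pair shares its organs and the phagocyte markers that differ with them. Genes that were 2-fold different in opposite directions were few, 14 higher in brain Treg and lower in brain nonTreg and 15 the reverse.

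**Figure D5:**
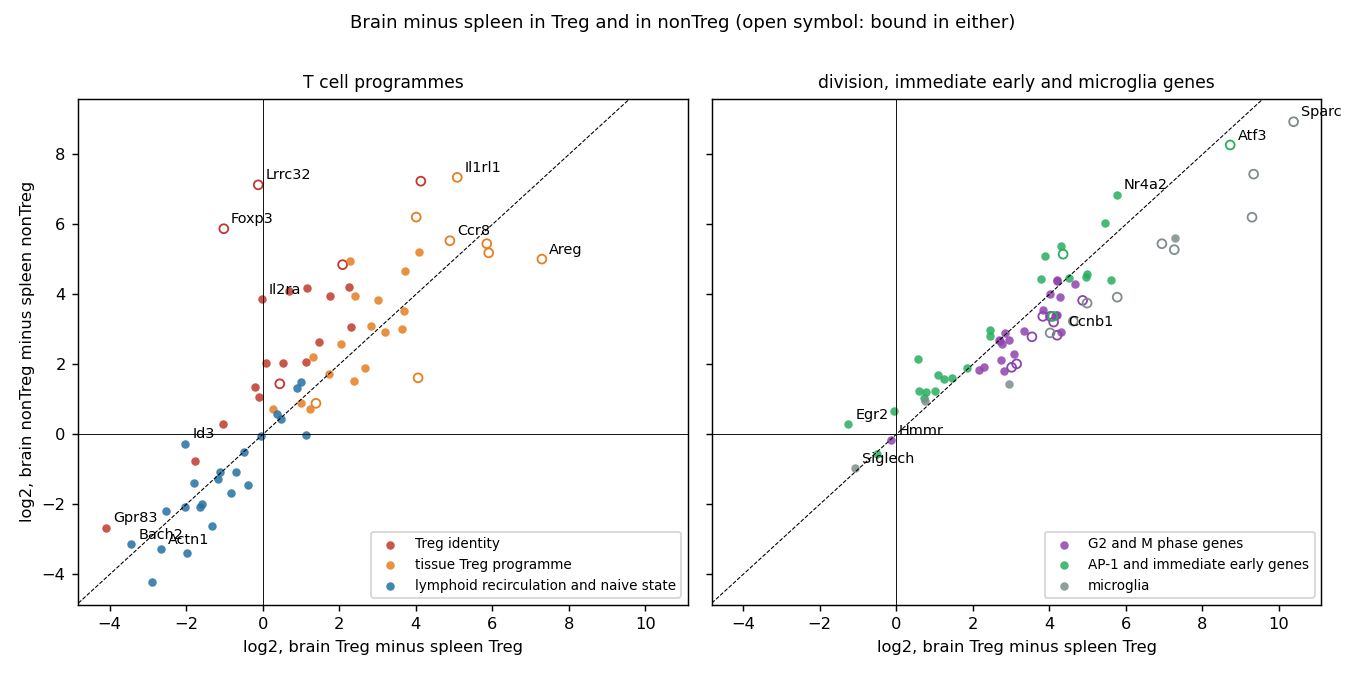
Log2 difference of each list gene in Treg (horizontal axis, brain Treg minus spleen Treg) and in nonTreg (vertical axis, brain nonTreg minus spleen nonTreg); open symbols are bounds in either, and the dashed line marks equal differences. Foxp3 and Lrrc32 lie far above the line, with Treg differences of -1.02 and -0.12, recirculation genes lie low in both, and G2 and M phase and immediate early genes lie close to the line. Most microglia genes lie below it, with list medians of 5.38 in Treg and 3.92 in nonTreg.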

How the data were processed

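Gene expression was measured on 1-colour Agilent arrays (Cy3), 1 array for each of 8 groups, of which the 4 T cell arrays are used here. All 8 arrays lay on 1 slide, per the file names. Feature Extraction 10.7.1.1 (Agilent) is the software that the submitters' processing notes name. Per the file headers, the deposited intensity is a linear, background-subtracted value without scaling between arrays. The series table that the authors deposited gives another linear signal. It is the processed intensity divided by a constant for each array in 99.9% of probes (tolerance 0.1%), with column medians of 0.0731 for brain Treg and 0.0686 for spleen Treg, and it served as an alternative, without its 4 other columns.

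Spots of a probe were averaged, taken as log2 of the deposited intensity and scaled by subtracting the array's 75th percentile over the 24603 probes well above background on all 4 T cell arrays. Probes were named by RefSeq accession against GRCm38.p6, used for names and promoter windows only: 32994 of 56605 probes had 1 symbol, none several and 23611 none. Each gene was read from 1 probe, the brightest by mean scaled log2 value of the 4 arrays. Of 5823 further probes above background on both Treg arrays, 86.1% lay within 2-fold of the probe used, and 12 of 1091 belonging to genes at 2-fold went the opposite way at 2-fold. Bounds set the brighter library against the dim one's measured value or, where that was smaller, its lowest probe called above background; 67 genes whose bound had the wrong sign got no value. No test was run, since each group has 1 array.

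The 35 programme and 20 marker lists, 997 symbols of which 17 had no probe, were chosen with earlier results of these data known, as were the comparison and the alternatives. The genes named are the top 16 each way among those above background on both arrays, the 8 largest bounds each way (predicted loci passed over), 9 fixed genes (Foxp3, Il2ra, Ctla4, Areg, Il1rl1, Ccr8, Ccr6, Il10 and Htr7), and members of the lists: the largest differences each way, defining markers not above background, and further members of a named family. Some genes that these rules name are not reported here; they count in the lists and figures. The counting was run on simulated arrays with known changes and noise equal to the median SD between repeated spots. That checks the code only, because variation between samples was left out. Alternatives were normexp background correction (limma 3.58.1, offset 50, on median spot and background intensity), quantile normalization, the percentile over all probes, the median as scaling point, only genes above background on both arrays, no filter, the median over a gene's probes, and the deposited table. Python 3.11.15 and R 4.3.3 were used.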

Additional observations from a re-analysis of the deposited data

Results flagged for a closer look

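The brain minus spleen difference went in opposite directions in Treg and in nonTreg, by 2-fold or more in each, for 29 genes. Of the 5 with the largest gap each way, predicted loci passed over, 9 are given here; they were chosen after their values were seen, except Foxp3. Whether the 2 contrasts differ was not tested, since each group has 1 array.

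Foxp3 differed by -1.02 between brain Treg and spleen Treg, just past 2-fold, and was at least 5.88 higher in brain nonTreg than in spleen nonTreg. Flicr, a non-coding RNA gene named for its regulation of Foxp3, showed the same pattern. It had 122 in brain Treg and 564 in spleen Treg (-2.66), and 35.6 in brain nonTreg and 8.55 in spleen nonTreg, where it was not above background (at least 1.35). Rgs9, a regulator of G protein signalling, differed by -1.41 in Treg and by at least 2.41 in nonTreg. Its 3 further probes gave -1.12, -1.42 and -1.47 in Treg. Wfdc2, which encodes a secreted protein, differed by -2.54 in Treg and was at least 2.83-fold higher in brain nonTreg than in spleen nonTreg. Fcmr, an Fc receptor for IgM, differed by -1.28 in Treg and by at least 3.47 in nonTreg.

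The reverse pattern was largest for Pdlim4, a gene for a protein that binds the actin cytoskeleton. Pdlim4 had 484 in brain Treg and 39.5 in spleen Treg (3.17), and 592 in brain nonTreg and 4981 in spleen nonTreg (-3.57). The 2 brain libraries were thus close to each other and the 2 spleen libraries far apart. Parva was at least 2.98 higher in brain Treg than in spleen Treg, while brain nonTreg lay at least 13.4-fold under spleen nonTreg. Its signals were dim, at 95.3 in brain Treg and 97.7 in spleen nonTreg. Nacc2 differed by 2.09 in Treg and -2.43 in nonTreg. Asph was at least 2.58 higher in brain Treg and differed by -1.79 in nonTreg. The further probes of Parva and Nacc2 were not above background in either Treg library. Of the 2 further Asph probes 1 was not either, and the other gave at least 3.09 in Treg.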

How the results depend on the processing

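No paired analysis was possible because each group has 1 array and the labels carry no replicate numbers; leaving out a replicate was not possible for the same reason. The counts at 2-fold, 2372 higher and 1619 lower in brain Treg, stayed within 1.5 times under quantile normalization, the percentile over all probes, median scaling, the median over probes and the deposited table (2329 to 2555 higher, 1407 to 1674 lower). Normexp gave 1239 higher and 907 lower and moved the median of all genes by -0.13. Genes above background on both arrays gave 1450 higher and 1383 lower, so 51.2% of the genes at 2-fold were higher there, against 59.4% in the main setting; no filter gave 3313 higher and 2552 lower. Of 55 list medians 18 moved by over 1.5 times over genes above background on both arrays, where fewer genes enter, 24 under normexp and 1 to 11 under the other settings. Over genes above background on both arrays 6 medians changed sign: erythroid and platelet (1.47 to -0.25), choroid plexus (0.31 to -1.29), neutrophil (0.14 to -0.49, and -0.30 under normexp), astrocyte (0.31 to -0.33), B cell (0.11 to -0.12) and extracellular nucleotide genes (0.22 to -0.11). The oligodendrocyte median was -0.04, but 0.04 with median scaling and 0.57 with the median over probes. Of 25 medians of 1 or more, 17 and 15 stayed there over genes above background on both arrays and under normexp. The difference of Siglech changed sign to 2.73 with the median over its probes, which disagree. Depth of reading is not the limit here: the 1 array per group and the 1449 bounds higher and 457 bounds lower limit the precision.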

Other observations

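Probes designed against different kinds of transcript did not share 1 distribution of differences. The 19489 kept probes with a curated RefSeq mRNA accession had a median difference, brain Treg minus spleen Treg, of 0.06, with 16.9% higher and 10.6% lower at 2-fold. The other 11923 kept probes had a median of -0.42, with 10.3% higher and 28.8% lower. Every other named class had a negative median. Probes against cDNA clones with AK accessions had a median of -0.62 over 2634 probes, with 35.3% lower, probes against genomic intervals -0.45, curated RefSeq non-coding RNAs -0.38 and Ensembl transcripts -0.34.

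A gap in medians was present within each range of mean signal, and it was small among the brightest probes. Among probes above background on both arrays with a mean scaled log2 signal over -3 and up to -1, the median was 0.0042 for curated mRNA probes and -0.43 for the others. In the range over -1 and up to 1 it was 0.0069 and -0.19, and above 1 it was 0.04 and -0.08. Above 1 the shares at 2-fold lay near each other. Of curated mRNA probes there 9.7% were higher and 6.5% lower, and of the others 10.8% and 7.8%. Over all signals the nonTreg pair had the same order of medians, with 0.05 for curated mRNA probes and -0.45 for the others. Airn, a non-coding RNA antisense to Igf2r and one of the 16 lowest named genes, belongs to this side of the comparison, with 92.3 in brain Treg and 910 in spleen Treg. Its further probe was above background only in spleen Treg, with a bound of -0.51. The cause of the gap was not tested.

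Relatives within several families went opposite ways in brain Treg. On the log2 scale Id2 differed by 3.87 and Id3 by -2.03, and Bcl2l1 by 2.09 and Bcl2 by -2.13. In nonTreg the Bcl2 difference was 0.05 and that of Id3 -0.27; whether the pairs differ was not tested.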
